A study of Homo sapiens with 6 samples.

Results

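Rab GTPases are the largest family of Ras-like small GTPases and act as switches on the membranes of vesicles and organelles. In the GTP-bound form a Rab sits on its membrane through a lipid tail and recruits effectors, such as tethers and motors. Exchange factors switch it on and GTPase activators switch it off. In endothelial cells Rabs are known for sorting receptors through endosomes and for the release of Weibel-Palade bodies, the granules that store von Willebrand factor. The members here were the probe sets annotated to exactly 1 gene whose symbol is RAB followed by a number and at most 1 further letter, so effector genes such as RAB11FIP1 were not members. The rule gave 161 of the 49395 probe sets, and these belonged to 57 of the 18132 genes that had a probe set of their own.

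RNA was measured in HMEC-1, a line derived from human dermal microvessels and immortalised with a viral oncogene, grown in serum-free MCDB131 medium. In the treated group of 3 arrays the cells had received EPC-Exos at 1e+11 particles per mL for 24 hours, and in the control group of 3 arrays PBS of equal volume for the same time. The labels do not spell out EPC-Exos; exosomes from endothelial progenitor cells are the usual reading. One line under 1 dose and at 1 time limits what the groups stand for, and the labels do not state that the 3 arrays of a group came from separate cultures, so a p-value covers just the variation among these arrays, possibly technical.

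Each array gave 1 log2 signal per probe set, with array medians of 6.25 to 6.34 and correlations of 0.997 within a group and 0.988 to 0.989 between groups. Of 8 endothelial markers, 5 exceeded the highest control signal that no human transcript feeds, 4.97, while CDH5 (VE-cadherin), TEK and CLDN5 did not in either group, and the list's summed linear signal was 1267 to 1455 with PBS and 1522 to 1575 with EPC-Exos. TIE1 was the 1 endothelial marker called (mean 7.36 to 7.85). Of 7 leukocyte markers 3 exceeded it, and PTPRC (CD45), CD14, LYZ and ITGB2 did not, and the sum over the list was 399 to 435 with PBS and 552 to 595 with EPC-Exos. CD68 alone of that list was called (7.73 to 8.47), and the groups overlapped in the other 6. All 6 fibroblast and smooth muscle markers exceeded it, with sums of 3084 to 3485 with PBS and 2403 to 2663 with EPC-Exos, but they did not move as one: DCN (7.61 to 5.40), ACTA2 (7.83 to 5.97), PDGFRB (7.75 to 6.46) and COL1A1 (11.07 to 10.40) fell, TAGLN rose (8.69 to 9.85) and MYH11 did not pass. Of 4 epithelial markers 3 exceeded it, all but CDH1, with sums of 6692 to 7386 and 4547 to 4712; KRT18 (12.53 to 11.82) and KRT8 fell and EPCAM did not pass. All arrays were of the HMEC-1 line, so these lists describe RNA of that line and do not count cell types. A bulk signal does not tell a change in all cells from a change in some of them. The part of these shifts in the Rab results was not tested.

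A Rab gene was read through the brightest of its probe sets, by mean signal, and tested where that mean reached 5.45, the 40th percentile of all non-control probe sets. This left 44 Rab genes among 11715 genes. After EPC-Exos 8 Rab genes rose, 16 fell and 20 did not pass limma's test at a Benjamini-Hochberg adjusted p under 0.05, so 24 of the 44 (54.5%) were called. Of all genes tested, 49.1% were called, 21.7% higher and 27.3% lower, so the share of Rab genes called lay near that of the array as a whole. The median log2 change was -0.019 over the Rab genes and -0.011 over all genes, and the median size of a change was 0.18 in both. The groups did not overlap in 24 Rab genes (54.5%), against 55.7% of all genes.

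The largest changes were falls. The series' own threshold asks for a 1.5-fold change and p under 0.05 without adjustment. Past it, 5 Rab genes were lower and 0 higher, or 11.4% of those tested, against 9.89% of all genes (5.96% lower and 3.94% higher). With an offset of 64 on the linear scale, with the filter at the 60th percentile, or with the mean over a gene's probe sets, 3 Rab genes passed in place of 5. The 5 were RAB26 (2.49-fold lower), RAB5B (1.69-fold), RAB40B (1.66-fold), RAB33B (1.59-fold) and RAB9B (1.52-fold). The largest rise was in RAB20, 1.40-fold. Without a filter, without PBS replicate 3, or without EPC-Exos replicate 1 or 2, 5 Rab genes rose in place of 8, and without probe sets of a kind that can bind related transcripts 4 rose. With each array centred on the median of its tested genes 12 rose and 14 fell (3249 and 2670 of all genes, against 2545 and 3203).

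**Figure D1:**
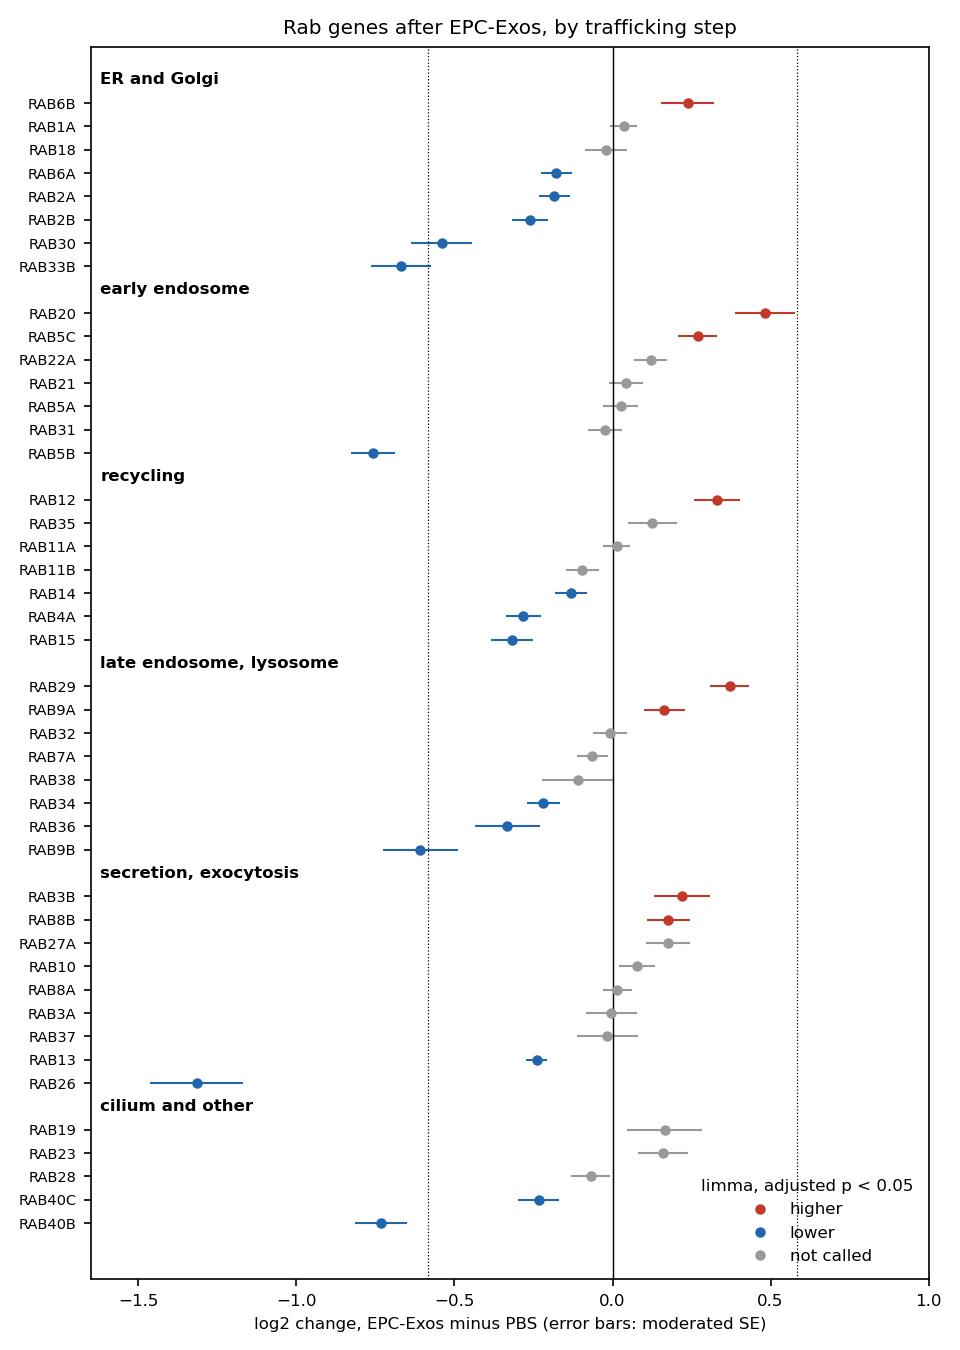
Log2 change of the 44 tested Rab genes (EPC-Exos minus PBS) with limma's moderated standard error, grouped by trafficking step; red marks genes called higher, blue genes called lower, and dotted lines a 1.5-fold change. RAB26 lies farthest from 0 at -1.32, and no gene lies beyond the dotted line on the right.

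The sequence before the start site of each Rab gene was searched for 3 motifs of factors known to drive lysosomal, sterol and interferon genes. RefSeq windows of GRCh38.p14 were found for 45 of the 57 Rab genes, and the 250 bases before the start site were searched on both strands. The motifs were the sterol regulatory element TCACNCCAC, the core TCACGTGA of the CLEAR element of lysosomal genes, and the interferon-stimulated response element. The sterol motif occurred in 0 Rab windows, against 0.875% of 27305 windows. The CLEAR core occurred in 2, those of RAB5A and RAB21 (0.89% of all windows), neither of which was called. The interferon motif occurred in 1, that of RAB27A (3.07% of all windows). Of the 8 genes that rose 6 had a window, and of the 16 that fell 11 had one, and no motif was in these windows. At shares this low over all windows, finding no motif in so few says little about the called genes. Just 1 window per gene was searched. RAB26 and RAB20, with the largest fall and the largest rise, had no window and were not searched. Shown are the genes with the largest fall and the largest rise among those with a window, RAB5B and RAB29, and RAB27A, with the interferon motif in capitals at -240 to -231 from the start site.
RAB5B, chr12:55973699-55973948, plus strand: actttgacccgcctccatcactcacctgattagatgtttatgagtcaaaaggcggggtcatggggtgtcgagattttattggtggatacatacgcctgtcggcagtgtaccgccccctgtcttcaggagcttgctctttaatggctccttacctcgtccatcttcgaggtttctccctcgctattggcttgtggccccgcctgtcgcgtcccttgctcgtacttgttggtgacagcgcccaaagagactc
RAB29, chr1:205775483-205775732, minus strand: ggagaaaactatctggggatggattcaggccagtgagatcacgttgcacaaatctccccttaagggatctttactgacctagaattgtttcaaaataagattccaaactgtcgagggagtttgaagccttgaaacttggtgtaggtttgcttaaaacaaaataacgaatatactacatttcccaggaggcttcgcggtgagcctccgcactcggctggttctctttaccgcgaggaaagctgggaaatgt
RAB27A, chr15:55319124-55319373, minus strand: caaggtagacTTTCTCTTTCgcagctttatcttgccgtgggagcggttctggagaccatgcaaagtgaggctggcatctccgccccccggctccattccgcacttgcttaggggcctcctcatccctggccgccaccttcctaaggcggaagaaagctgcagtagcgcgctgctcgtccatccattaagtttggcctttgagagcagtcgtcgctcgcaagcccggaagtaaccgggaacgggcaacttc
The windows of RAB5B, RAB29 and RAB27A had GC contents of 54.0%, 45.2% and 58.8%, below the median of 64.8% over the Rab windows, and 14, 9 and 17 CpG sites against a median of 19. Over all windows the medians were 58.0% and 11.

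Of 8 tested Rabs of the endoplasmic reticulum and Golgi 5 fell, 1 rose and 2 did not pass, where 27.3% of all genes fell. The median change of the step was -0.18 on the log2 scale. RAB33B, a Golgi Rab that also binds the autophagy protein ATG16L1, read 7.96, 7.65 and 7.77 on the PBS arrays, in log2 signal, and 6.99, 7.19 and 7.20 with EPC-Exos. Every treated array lay below every control array, and the change was -0.67 ± 0.094 (SE; adjusted p = 1.76e-05). RAB30, another Golgi Rab, went from 6.85, 6.85 and 7.10 to 6.33, 6.39 and 6.46, a change of -0.54 ± 0.096 (adjusted p = 0.000188) without overlap, and of -0.33 with the offset of 64. RAB2B, which acts between the endoplasmic reticulum and the Golgi, went from 9.62, 9.71 and 9.65 to 9.37, 9.43 and 9.39 (-0.26 ± 0.057). Its relative RAB2A went from 10.58, 10.58 and 10.53 to 10.44, 10.35 and 10.35 (-0.18 ± 0.050). RAB6A, the Rab of retrograde transport from the Golgi, changed by -0.18 ± 0.049. These last changes were under 1.25-fold. The groups did not overlap in any of them, as in 55.7% of all genes tested. The calls on RAB2B and RAB6A were lost over the mean of their probe sets (adjusted p = 0.069 and 0.101), and that on RAB2A with arrays centred on the tested genes (adjusted p = 0.0578). For RAB2B and RAB6A the mean takes in probe sets below the signal filter, and 5 of the 6 tested probe sets of RAB6A were called lower. Of the 4 tested probe sets of RAB2A 2 were called lower, and the changes ran from -0.30 to 0.058. RAB1A, the Rab of transport from the endoplasmic reticulum to the Golgi, did not pass (0.035 ± 0.043). Nor did RAB18, which marks the endoplasmic reticulum and lipid droplets (10.61, 10.30 and 10.56 with PBS, and 10.46, 10.46 and 10.48 with EPC-Exos). Of the 8 tested probe sets of RAB18 1 was called higher and none lower.

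RAB6B, the brain-enriched relative of RAB6A, was called higher through its brightest probe set, from 7.38, 7.54 and 7.41 to 7.66, 7.80 and 7.58. Its other 2 tested probe sets were both called lower, one from a mean of 7.43 to 7.23 and one from 6.33 to 5.89, so the direction of RAB6B is not settled. Its call was also lost without PBS replicate 1 or 3 or EPC-Exos replicate 1 or 2, at adjusted p-values of 0.071, 0.0676, 0.0552 and 0.126.

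The 3 RAB5 genes, whose products drive fusion of early endosomes, parted. RAB5B read 9.39, 9.42 and 9.37 on the PBS arrays, in log2 signal, and 8.68, 8.74 and 8.50 with EPC-Exos, a fall by 0.76 ± 0.070 (adjusted p = 1.53e-07). All 3 of its probe sets were called lower, with changes from -0.76 to -0.44. RAB5C went from 9.65, 9.71 and 9.85 to 9.98, 10.06 and 9.97, a rise of 0.27 ± 0.061 (adjusted p = 0.00149), and all 3 of its probe sets were called higher. RAB5A had 11.14, 10.95 and 10.93 with PBS and 11.01, 11.08 and 11.01 with EPC-Exos, with overlapping groups and a change of 0.026 ± 0.055 that did not pass. RAB20, a Rab of endosomes and phagosomes, had the largest rise of the family, from 7.13, 7.09 and 6.87 to 7.41, 7.65 and 7.47 (0.48 ± 0.094, adjusted p = 0.000424). Each treated array of RAB20 lay above each control array. Of 7 tested early endosomal genes 2 rose, 1 fell and 4 did not pass (42.9% called, against 49.1% of all genes). RAB21, which binds integrins, and RAB31 changed by 0.043 ± 0.054 and -0.023 ± 0.053 and did not pass.

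Among 7 recycling Rabs 3 fell, 1 rose and 3 did not pass (57.1% called, against 49.1% of all genes). RAB4A, the Rab of the fast return of receptors to the surface, went from 9.86, 9.90 and 9.89 to 9.56, 9.63 and 9.62 (-0.28 ± 0.055, adjusted p = 0.000392). Over the mean of its probe sets the change was -0.16 and the call was lost (adjusted p = 0.072). Both of its tested probe sets were called lower, and that mean also takes in a probe set below the signal filter. RAB15, which also acts at recycling endosomes, went from 8.80, 8.86 and 8.97 to 8.55, 8.54 and 8.58 (-0.32 ± 0.067). Neither gene's groups overlapped. RAB14, a Rab of the Golgi and endosomes, was called lower by a small margin, from 10.72, 10.63 and 10.72 to 10.51, 10.56 and 10.61 (-0.13 ± 0.050, adjusted p = 0.0403), and the call was lost without PBS replicate 1 or 3 or EPC-Exos replicate 1 or 2, at adjusted p-values of 0.0766, 0.104, 0.172 and 0.0871. Of the 3 tested probe sets of RAB14 2 were called lower, and the changes ran from -0.16 to 0.065. RAB12, which sends transferrin receptor from recycling endosomes to lysosomes, rose from 8.15, 8.17 and 8.25 to 8.46, 8.48 and 8.62 (0.33 ± 0.072). Only that brightest probe set of RAB12, of a kind that can bind related transcripts, was called, and without such probe sets the change was 0.067 (adjusted p = 0.537). RAB11A and RAB11B, the Rabs of slow recycling, did not pass through their brightest probe sets. RAB11A read 10.98, 11.01 and 10.97 with PBS and 10.99, 11.03 and 10.99 with EPC-Exos, and RAB11B 10.70, 10.80 and 10.66 and then 10.59, 10.68 and 10.60, with overlapping groups in both.

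Of 8 late endosomal and lysosomal Rabs 3 fell, 2 rose and 3 did not pass (62.5% called, against 49.1% of all genes). RAB29, which acts at the trans-Golgi network and lysosomes and recruits the kinase LRRK2, rose from 9.03, 8.95 and 9.01 to 9.29, 9.44 and 9.38 (0.37 ± 0.063, adjusted p = 0.000121). All 5 of its probe sets were called higher, by 0.28 to 0.56. RAB9B went from 6.63, 6.23 and 6.32 to 5.91, 5.81 and 5.64 (-0.61 ± 0.12, adjusted p = 0.000409) without overlap. With the offset of 64 its change was -0.31, still called but short of 1.5-fold. Its relative RAB9A, which returns mannose 6-phosphate receptors from late endosomes to the Golgi, went from 8.57, 8.54 and 8.48 to 8.68, 8.68 and 8.72, a rise of 0.16 ± 0.065 that passed narrowly (adjusted p = 0.0476). The call on RAB9A was lost without PBS replicate 2 or 3 or any 1 EPC-Exos array (adjusted p = 0.0721 to 0.15). Nor was its 1 probe set called when probe sets were tested on their own. RAB34, which positions lysosomes, fell by 0.22 ± 0.052, and all 3 of its probe sets were called lower. RAB36, a relative of RAB34, went from 6.27, 6.12 and 6.22 to 5.89, 5.97 and 5.75 (-0.33 ± 0.10, adjusted p = 0.0126, and 0.0582 without EPC-Exos replicate 3). With the offset its change was -0.17, still called. RAB7A, the main late endosomal Rab, read 10.59, 10.65 and 10.60 with PBS and 10.53, 10.62 and 10.50 with EPC-Exos (-0.063 ± 0.050). RAB32, a Rab of lysosome-related organelles, changed by -0.0092 ± 0.054 and its relative RAB38 by -0.11 ± 0.11, and none of these 3 passed.

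Of 9 tested Rabs of secretion and exocytosis 2 fell, 2 rose and 5 did not pass (44.4% called, against 49.1% of all genes). RAB26, a Rab of secretory granules, read 6.70, 6.90 and 7.04 on the PBS arrays, in log2 signal, and 5.44, 5.97 and 5.29 with EPC-Exos. Every treated array lay below every control array, and the change of -1.32 ± 0.15 (adjusted p = 1.28e-06) was the 152nd in size among the 11715 genes. Its single probe set ended close to the highest non-human control signal of 4.97, and with the offset of 64 the change was -0.70, still called. RAB13, which acts at cell junctions, went from 12.53, 12.57 and 12.60 to 12.30, 12.35 and 12.32 (-0.24 ± 0.034, adjusted p = 2.01e-05), the most precise of the falls, and all 3 of its probe sets were called lower. RAB8B (0.18 ± 0.069) and RAB3B, a Rab of regulated secretion (0.22 ± 0.088), passed narrowly (adjusted p = 0.0434 and 0.0493), and in both genes the groups overlapped. The RAB8B call was lost without PBS replicate 2 or 3 or EPC-Exos replicate 1 or 2, at adjusted p-values of 0.215, 0.0756, 0.137 and 0.2, and the RAB3B call without PBS replicate 1 or 2 or EPC-Exos replicate 2 or 3, at adjusted p-values of 0.0885, 0.211, 0.164 and 0.15. With probe sets tested on their own, 3 of the 4 of RAB8B were called higher (changes from 0.15 to 0.37), and 1 of the 2 of RAB3B. RAB3A, the synaptic vesicle Rab, read 7.28, 7.21 and 7.19 with PBS and 7.27, 7.23 and 7.16 with EPC-Exos. RAB37, a Rab of secretory granules, read 6.16, 6.14 and 6.19 and then 6.04, 6.17 and 6.23. RAB8A and RAB10, which carry vesicles to the surface, changed by 0.016 ± 0.046 and 0.077 ± 0.056 and did not pass.

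RAB27A is known for docking multivesicular bodies for exosome release and for binding Weibel-Palade bodies. Its brightest probe set read 8.09, 8.05 and 8.04 with PBS and 8.22, 8.17 and 8.30 with EPC-Exos, which just missed the threshold (0.18 ± 0.071, adjusted p = 0.0504) although the groups did not overlap. The other 5 probe sets all lay below 0, and 4 of them were called lower. The largest fall among them ran from 8.58, 8.26 and 8.56 to 7.86, 7.54 and 7.80, a change of -0.73 ± 0.099 (adjusted p = 1.27e-05). On the PBS arrays alone that falling probe set was the brightest, with a mean of 8.47 against 8.06 for the one used. Brightness was ranked by the mean over all arrays, so the choice rested partly on the treated group. The mean over the 6 probe sets changed by -0.30 (adjusted p = 0.00215), while the brightest one passed as higher under 7 other choices of scaling, filter or variance model (adjusted p = 0.0126 to 0.0404). RAB27B, the relative that shares these roles, was not tested, with means of 4.78 ± 0.32 with PBS and 4.60 ± 0.076 with EPC-Exos (SD, n = 3), below the highest non-human control signal in both groups.

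**Figure D2:**
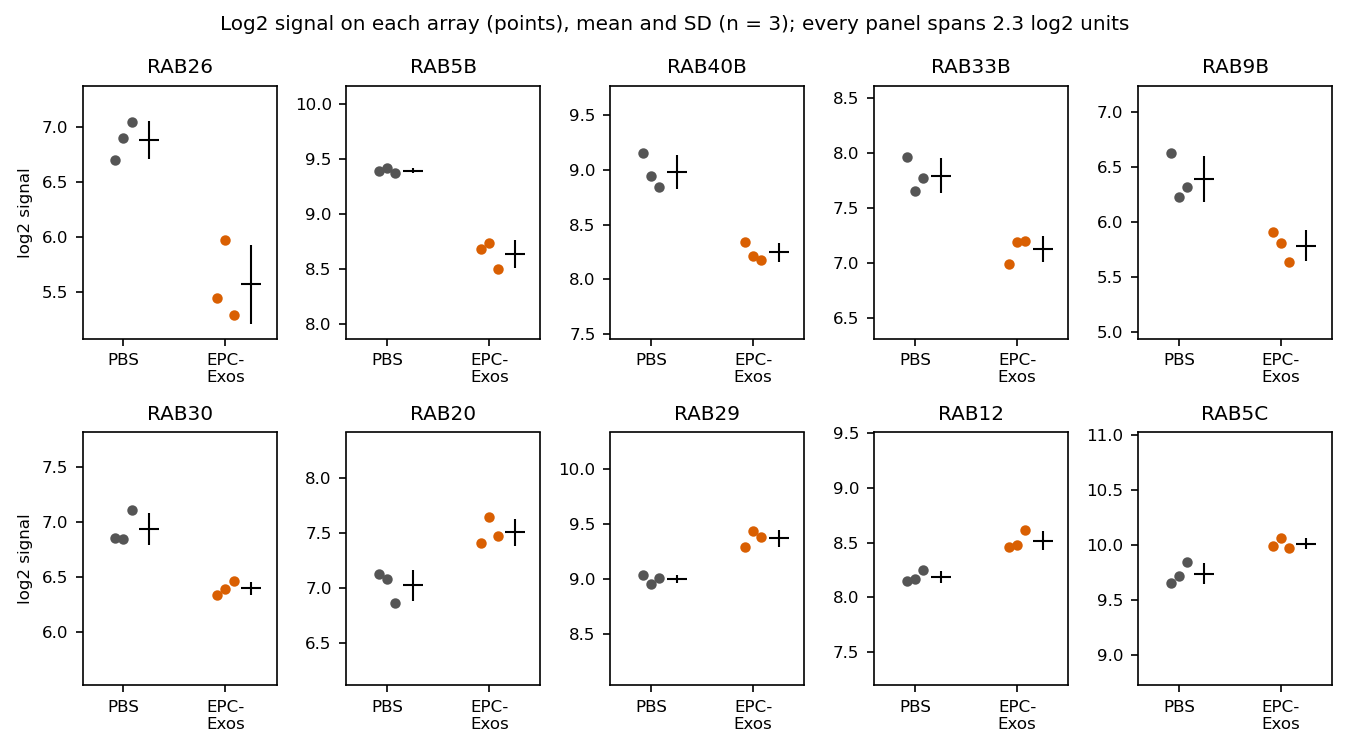
Log2 signal of 10 Rab genes on each of the 3 PBS and 3 EPC-Exos arrays (points), with the mean and SD beside them; every panel spans the same range. In all 10 the groups stand apart, with RAB26 moving most.

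Of 5 Rabs of cilia and other roles 2 fell, 0 rose and 3 did not pass (40% called, against 49.1% of all genes). RAB40B, which carries a SOCS box and works with a cullin ubiquitin ligase, went from 9.15, 8.94 and 8.85 to 8.34, 8.21 and 8.18 (-0.73 ± 0.081, adjusted p = 1.27e-06). Its relative RAB40C went from 8.86, 8.95 and 8.90 to 8.60, 8.68 and 8.71 (-0.23 ± 0.065). In both the groups stood apart, but 1 of the 3 probe sets of RAB40C was called, and its call was lost over their mean (adjusted p = 0.177) and without probe sets of the kind that can bind related transcripts (adjusted p = 0.0824). RAB23 and RAB28, Rabs of the cilium, changed by 0.16 ± 0.080 and -0.069 ± 0.062 and did not pass. All 4 probe sets of RAB23 lay above 0 and 1 was called higher, and RAB23 was called higher under 5 alternatives. RAB28 read 9.35, 9.23 and 9.32 with PBS and 9.29, 9.22 and 9.19 with EPC-Exos. RAB19, whose mean signal was among the lowest tested, changed by 0.16 ± 0.12.

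The 13 Rab genes below the signal filter were RAB17, RAB25, RAB27B, RAB33A, RAB39A, RAB39B, RAB3C, RAB3D, RAB40A, RAB41, RAB42, RAB6D and RAB7B. In 9 of them both group means were at or below 4.97, so they could not be told from background. In a fit without the filter 1 of the 13 passed, RAB7B, a late endosomal Rab, with means of 5.00 ± 0.33 with PBS and 4.47 ± 0.11 with EPC-Exos (SD, n = 3; adjusted p = 0.00581), the lower of them under that background level. RAB25, an epithelial recycling Rab, had 5.43 ± 0.089 and 5.46 ± 0.11, and RAB3D, a Rab of secretory granules, 5.11 ± 0.20 and 5.31 ± 0.33. The group means of the 13 genes ran from 3.17 in RAB6D to 5.46 in RAB25.

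Related genes were also compared within each array, as the difference of their log2 signals, which a shift of a whole array does not move. Of 20 pairs listed, 12 had both genes tested, and in 8 of these the differences of the treated arrays did not overlap those of the controls. Of all single genes tested 55.7% lacked overlap, and the share over other gene pairs was not computed. The 3 RAB5 genes were each paired with one another. Among the genes of these 8 pairs, RAB5A, RAB6B, RAB11A, RAB11B, RAB22A and RAB40C had tested probe sets that differed in sign. The changes ran from -0.083 to 0.071 in RAB5A and from -0.23 to 0.073 in RAB40C. The exact two-sided permutation test of 3 against 3 arrays cannot go below p = 0.1, which these 8 pairs had (0.15 after Benjamini-Hochberg adjustment over the 12 pairs), so no pair could pass. RAB5B against RAB5C moved most: the difference went from -0.34 ± 0.12 to -1.37 ± 0.092 (SD, n = 3), a shift of -1.03. RAB5A against RAB5B went from 1.61 ± 0.12 to 2.40 ± 0.10, and RAB9A against RAB9B from 2.13 ± 0.19 to 2.90 ± 0.16. RAB40B against RAB40C shifted by -0.50 and RAB6A against RAB6B by -0.42, the last resting on the RAB6B probe set that its others opposed. In 3 pairs, RAB5B and RAB5C, RAB6A and RAB6B, and RAB9A and RAB9B, one gene was called higher and the other lower. RAB2A against RAB2B, RAB3A against RAB3B, RAB8A against RAB8B and RAB32 against RAB38 overlapped between the groups.

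**Figure D3:**
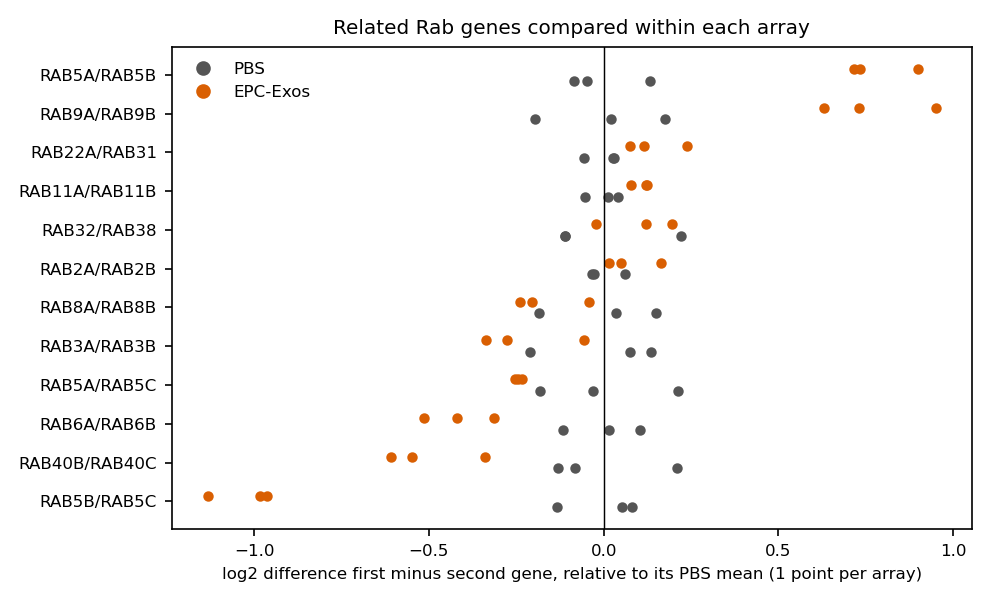
Difference of log2 signal between 2 related Rab genes on each array, set to 0 at the mean of the PBS arrays; grey points are PBS arrays and orange points EPC-Exos arrays. RAB5B/RAB5C lies farthest to the left (mean shift -1.03) and RAB5A/RAB5B farthest to the right (0.78).

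Since the members were defined as probe sets, each was also tested on its own. Of the 161 probe sets, 124 reached the signal filter, and 39 were called lower, 21 higher and 64 not. Of 27244 probe sets of single genes 45.8% were called, 23.7% lower and 22.1% higher. Of the 31 tested genes with at least 2 tested probe sets, 14 had changes of both signs, but RAB6B was the 1 gene called both ways. RAB22A, an early endosomal Rab, had 2 probe sets: the brighter read 9.99, 10.02 and 10.04 with PBS and 10.17, 10.14 and 10.10 with EPC-Exos (0.12 ± 0.052, adjusted p = 0.0702), and the other fell from 9.35, 9.13 and 9.58 to 8.78, 8.75 and 8.85 (-0.56 ± 0.089, adjusted p = 6.41e-05). Both were free of overlap, in opposite directions. RAB35, a Rab of fast recycling, lay above 0 in all 5 probe sets, of which 2 were called, one rising from 6.69, 6.80 and 6.50 to 7.20, 7.26 and 7.23 (0.57 ± 0.095). Of the 4 probe sets of RAB11A 2 were called lower (-0.31 ± 0.054 and -0.18 ± 0.065), and of the 3 of RAB7A 2 were called higher (0.20 ± 0.050 and 0.18 ± 0.061), while the brightest of each did not pass. Which transcripts these probe sets bind was not examined.

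**Figure D4:**
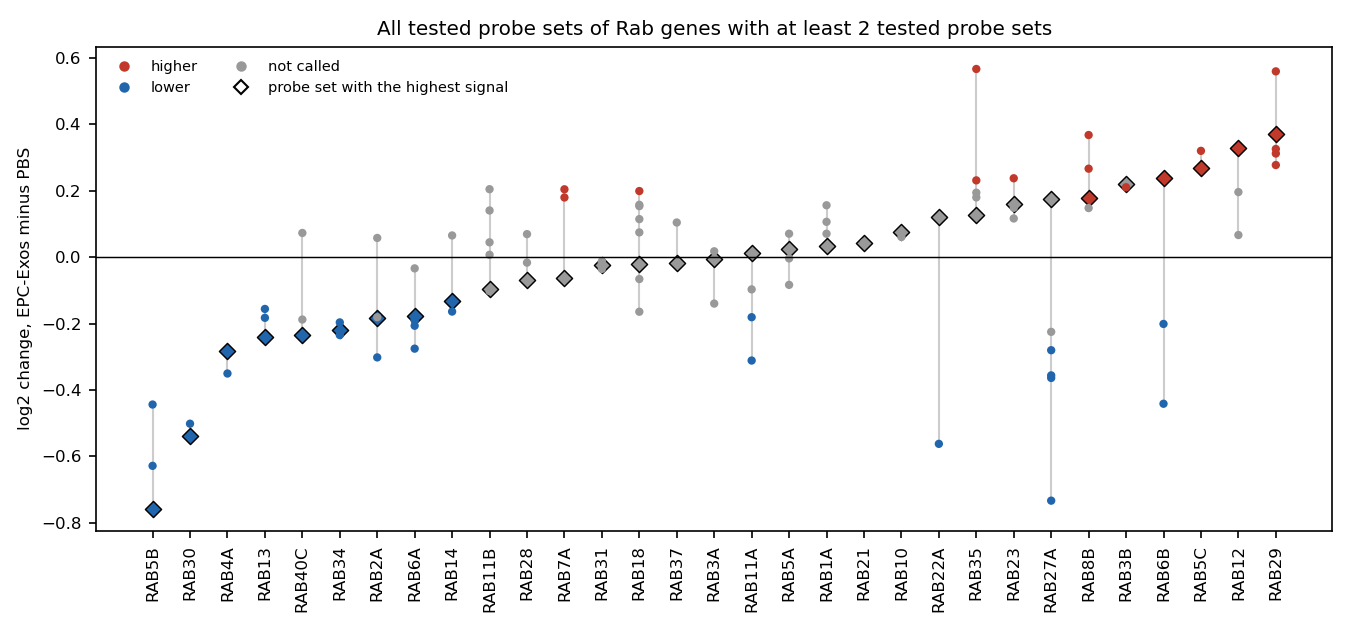
Log2 change of each tested probe set for the 31 Rab genes with at least 2, ordered by the change of the brightest one (diamond); red, blue and grey mark probe sets called higher, lower and not called. RAB27A spans from -0.73 to 0.18, and RAB22A from -0.56 to 0.12.

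Genes that run the Rab cycle were read from 4 lists of 126 genes in all, of which 119 had a probe set of their own and 110 were tested. In the membrane cycle, which attaches lipid tails to Rabs and moves them between cytosol and membrane, 2 of 6 tested genes rose and 2 fell. The share called was 66.7%, against 49.1% of all genes. RABGGTB, the catalytic subunit of the enzyme that attaches the lipid, rose from 10.03, 10.02 and 9.95 to 10.53, 10.52 and 10.54 (0.53 ± 0.050, adjusted p = 2.01e-07), while RABGGTA, the other subunit, went from 7.78, 7.84 and 7.87 to 7.56, 7.63 and 7.56 (-0.25 ± 0.074). Both were free of overlap between the groups. CHML, the escort protein REP2, changed by 0.32 ± 0.11 and RABAC1, a Rab acceptor, by -0.14 ± 0.049. Without PBS replicate 2 or 3 or EPC-Exos replicate 1 or 3, 2 genes of this list were called in place of 4.

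Of 34 exchange factors 12 fell, 6 rose and 16 did not pass, a share called of 52.9% against 49.1% of all genes. DENND2A, which acts on RAB9, went from 7.52, 7.62 and 7.87 to 6.65, 6.94 and 6.77 (-0.88 ± 0.10, adjusted p = 2.1e-06), and DENND2B, which acts on RAB13, changed by -0.59 ± 0.083. DENND1A, which acts on RAB35, rose by 0.47 ± 0.086, DENND5B fell by 0.47 ± 0.079, and RAB3IL1, an exchange factor for RAB3A and RAB8, rose by 0.46 ± 0.093. Of 27 GTPase activators 12 fell, 3 rose and 12 did not pass (55.6% called, also against 49.1%), among them TBC1D12 (-0.51 ± 0.080), RABGAP1L (-0.45 ± 0.081) and SGSM2 (-0.39 ± 0.072), which fell, and TBC1D1 (0.42 ± 0.069) and TBC1D16 (0.37 ± 0.14), which rose. The directions were mixed in both lists, and their medians were -0.023 and -0.16.

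Of 43 effectors 20 fell, 8 rose and 15 did not pass (65.1% called), with a median of -0.15, where 49.1% of all genes were called and 27.3% fell. SYTL2, a RAB27 effector of secretory vesicles, went from 7.13, 7.03 and 7.22 to 6.14, 6.35 and 6.16 (-0.91 ± 0.095, adjusted p = 6.31e-07). SYTL3, of the same family, rose from 6.57, 6.62 and 6.44 to 7.14, 7.32 and 7.15 (0.66 ± 0.091, adjusted p = 1.41e-05). Neither gene's groups overlapped. The RAB11 effectors split: RAB11FIP1 (-0.76 ± 0.13) and RAB11FIP3 (-0.44 ± 0.073) fell, and RAB11FIP2 (0.27 ± 0.076) and RAB11FIP5 (0.28 ± 0.070) rose. EEA1, the RAB5 effector that tethers early endosomes, rose from 8.75, 8.24 and 8.52 to 9.14, 8.85 and 8.99 (0.49 ± 0.10, adjusted p = 0.000867). Other effectors of early endosomes fell, namely RUFY1 (-0.39 ± 0.058), ANKFY1 (-0.29 ± 0.063), APPL2 (-0.29 ± 0.075) and RBSN (-0.16 ± 0.054), while RABEP1, RABEP2 and APPL1 did not pass. RAB11FIP2, RAB11FIP5 and these early endosomal effectors were named after their values were seen.

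**Figure D5:**
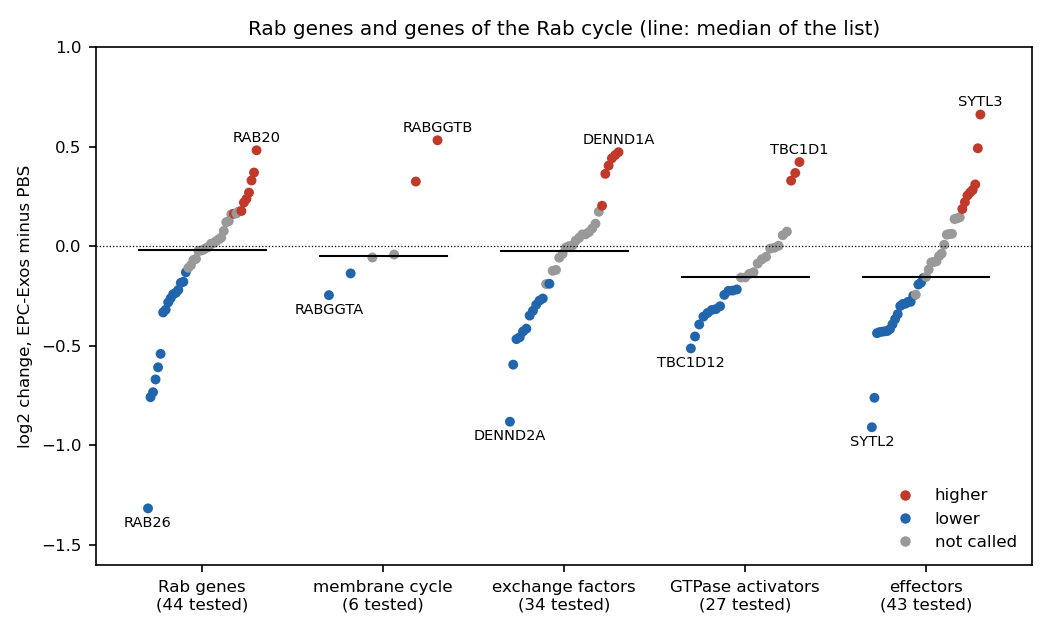
Log2 change (EPC-Exos minus PBS) of the 44 tested Rab genes and of the tested genes of 4 lists of the Rab cycle, 1 point per gene, with a line at each median; red, blue and grey mark genes called higher, lower and not called. RAB26 (-1.32) lies lowest of all, and SYTL3 (0.66) highest.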

How the data were processed

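RNA of 6 samples of HMEC-1 was amplified, labelled with biotin and hybridised to Affymetrix arrays, per the labels' protocols. The authors deposited a table of log2 signals, 1 per probe set and array; MAS5 is named without a role in the submitters' processing notes, and how the signals were corrected, summarised and scaled is not stated beyond that. The log2 scale was taken from the values, which ran from 2.47 to 14.52. Precision is limited by the number of arrays.

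Groups and replicate numbers came from the titles. Genes were named through the platform annotation. A gene's probe set with the highest mean was used, filtered at the 40th percentile of mean signal, and fitted with limma 3.58.1 in R 4.3.3 (eBayes with trend) over 11715 genes. Errors of changes are moderated SE, n is 3 arrays per group, and tests are two-sided. The members, trafficking steps and lists were chosen with earlier results of these data known. RAB6D had no step. Of each list of the Rab cycle, up to 5 called genes with the largest changes were named, with the exceptions given beside the effectors. Per-array values are given for the 14 largest called changes, at least 2 per step where called, and for genes whose probe sets differed in sign. The suffixes _x_at and _s_at mark designs that may hybridise to several transcripts. On simulated data for this comparison, with 11715 genes, 53.7% of 67 genes changed 1.2-fold were called, and 100% of those changed 1.5-fold or 2-fold, with 11 false calls. The simulation changed 67, 67 and 66 genes at these folds, while 5748 genes were called here, so its rates need not hold for these data.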

Additional observations from a re-analysis of the deposited data

How the results depend on the processing

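The alternatives were other array scalings, an offset of 64, other filters, other probe sets for a gene, a variance model without trend, weights per array, a replicate block and leaving out each array; centring on the median of the tested genes was chosen after seeing the data. Of the 24 calls, 12 held in the same direction under every alternative that tested the gene: RAB13, RAB15, RAB20, RAB26, RAB29, RAB30, RAB33B, RAB34, RAB40B, RAB5B, RAB5C and RAB9B. RAB2B, RAB4A and RAB6A lost their calls with the mean over probe sets (adjusted p = 0.069, 0.072 and 0.101) and RAB2A with centring on the tested genes (0.0578). The calls on RAB14, RAB3B, RAB6B, RAB8B and RAB9A, lost without single arrays, were each also lost under at least 1 other alternative. RAB10, RAB22A, RAB23, RAB27A and RAB35, not called in the main fit, were each called higher under at least 1 alternative. With the mean of probe sets the change turned to -0.14 for RAB11A (called), -0.22 for RAB22A (called), -0.30 for RAB27A (called) and -0.14 for RAB6B (not called). Signs of genes called in neither fit were not compared. Rab genes called higher numbered 5 without a filter and 4 without _x_at and _s_at probe sets, which leaves 37 tested. Those past the series' threshold numbered 3 with the offset, with the filter at the 60th percentile and with the mean of probe sets. Membrane cycle genes called numbered 2 with median scaling and without the variance trend. Leaving out 1 array gave 5 to 8 Rab genes higher, 15 to 16 lower, 4 to 5 past the series' threshold, 43 to 58 probe sets called and 2 to 4 membrane cycle genes.

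Deviations from the group mean had correlations of 0.21, 0.20 and 0.085 between same-numbered samples. Correlations between samples of different number were not set beside these, so the values do not show a pairing. Whether the numbers pair the samples was not tested, and the main fit took them as unpaired. With the replicate block 10 Rab genes were called higher and 16 lower, 5 passed the series' threshold, and 67 probe sets were called. Of all genes 2724 were then called higher and 3394 lower, against 2545 and 3203 without the block. The cause of these differences was not tested.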

Other observations

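RAB1B, RAB4B, RAB24 and RAB43 were read only through probe sets annotated to several genes, so the signal cannot be assigned to one. The probe set of RAB4B and the readthrough MIA-RAB4B changed by -0.51 ± 0.093 (limma over all annotated probe sets, adjusted p = 0.000275), those of RAB24 and MXD3 by -0.24 ± 0.079 and -0.21 ± 0.070, and those of RAB43 and its readthrough by 0.31 ± 0.12 and 0.063 ± 0.079. The 3 probe sets that RAB1A shares with RAB1B changed by -0.075 to 0.0031 and did not pass.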
